A study of Homo sapiens with 45 samples.

Results

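The genes described here are the 33 centrosomal CEP protein genes named for the centrosome, taken by symbol from count tables that each list 60624 genes. All 33 were found in each of the 4 tables. The centrosome is the microtubule organising centre of animal cells. It holds a pair of centrioles inside pericentriolar material, is copied in each cell cycle under the kinase PLK4, and its older centriole can dock at the membrane and template a primary cilium. CEP proteins build, copy, cap, link and dock centrioles, and CEP55 works at the midbody, the bridge that is cut when daughter cells separate.

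RNA was sequenced from 45 libraries of T47D, an established human breast carcinoma line of luminal type that expresses the oestrogen receptor, in 15 groups of 3. The stated aim was to find hypoxia-inducible genes that need the transcription factor ZHX2 and genes that change when phase separation is disturbed. The shRNA table (9 libraries) holds cells with the control hairpin shCtrl in normoxia or hypoxia and cells with shZHX2 in hypoxia. The hexanediol table (9 libraries) holds cells labelled hypoxia that were left as controls or given 0.5% or 1% of 1,6-hexanediol, an alcohol that dissolves many condensates, for 24 h. All 15 libraries of the rescue table are labelled hypoxia and carry shCtrl with vector, shZHX2 with vector, or shZHX2 with the ZHX2 forms WT, PA or SA. All 12 libraries of the sgRNA table are labelled hypoxia and are sgCtrl, sgZHX2, teton_control or teton_sgZHX2. Lentivirus carried the constructs, and hygromycin or puromycin was used for selection. No source used here gives the oxygen level, the duration of hypoxia, the guide design, clonality or what was changed in PA and SA. Whether replicates were grown as separate cultures is not stated, and the p-values below therefore refer to library-to-library spread only, possibly technical.

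Total counts ran from 14111216 to 27217814 per library. ZHX2 fell with shZHX2, from 18.8 ± 2.64 to 5.15 ± 1.53 CPM (counts per 1000000 of the library's TMM-scaled total, mean ± SD, n = 3 libraries here and below) in the shRNA table and from 32.0 ± 1.99 to 6.86 ± 0.545 CPM in the rescue table. ZHX2 stood at 72.3 ± 1.44 CPM with WT, 54.0 ± 0.436 with PA and 80.5 ± 2.26 with SA. With the label sgZHX2 it was 49.6 ± 1.69 CPM against 45.1 ± 1.36 in sgCtrl, and with teton_sgZHX2 49.3 ± 1.34 against 47.5 ± 1.85 in teton_control. The transcript therefore does not check those labels, and groups are named by their labels. CA9, a textbook hypoxia target, was 0.0145 CPM in normoxia (1 count in 3 libraries), 23.5 ± 0.734 CPM in hypoxic shCtrl cells and 145 to 206 CPM in the rescue and sgRNA tables, but 0.961 ± 0.508 CPM in the control libraries of the hexanediol table that are labelled hypoxia. The 10 luminal markers summed to 3605 to 59228 CPM per library. With hexanediol that sum went from 25087 to 27905 CPM in controls to 10854 to 15453 CPM at 0.5% and 3605 to 3850 CPM at 1%. The sum does not show each marker to be present: TFF1 was only 0.11 to 2.78 CPM across hexanediol libraries and 0.571 to 13.7 CPM across shRNA libraries. Rescue libraries held 4331 to 9144 CPM of TFF1, and sgRNA libraries 2390 to 3182 CPM. Sums of basal, leukocyte and endothelial markers stayed at or below 4.92 CPM, and the fibroblast sum of 12.9 to 72.3 CPM was nearly all COL1A1, with COL3A1 at most 4.24 CPM and PDGFRA at most 1.14 CPM.

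Members were compared with each other per length, in CPM per kilobase of annotated exon (RPKM). In normoxic shCtrl cells the median member stood at 0.809 RPKM. CEP55 was highest at 12.7 ± 0.37 RPKM, followed by CEP20 (FOR20, a partner of centriolar satellites and the cilium base) at 8.17 ± 0.41 RPKM, then CEP85 at 5.81 ± 0.36 and CEP131 at 5.76 ± 0.17, which did not differ beyond their spread. CEP112 was lowest at 0.0715 RPKM, and it had so few reads in the shRNA, rescue and sgRNA tables that it was tested only with hexanediol. CEP126 was not tested in the rescue table. With hexanediol all 33 members were tested, against 32 with shRNA, 31 with rescue constructs and 32 with sgRNA. The tables were scaled separately, so levels set across them are descriptive. The median member stood at 5.38 RPKM in the hexanediol controls, 1.43 in sgCtrl and 0.427 in shCtrl with vector.

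The members share features that their selection did not use. Their exons are long, with a median of 8.19 kb against 4.23 kb over coding genes, from 2.20 kb in CEP19 to 16.3 kb in CEP250. Their transcripts are poor in G and C, with a median GC content of 41.3% against 49.1% over coding genes. CEP44 is lowest at 35.4%, and only CEP131 (65.6%), CEP72 (55.4%), CEP250 (53.7%), CEP164 (52.7%), CEP85 (51.5%) and CEP89 (50.5%) exceed 50%. Exons of 15 members overlap exons of a gene on the other strand, and the largest shares are 11.3% in CEP295 (with AP001273.1), 11% in CEP72 (with TPPP) and 8.78% in CEP68 (with RAB1A). The strand setting of the counting is not given, so reads there cannot be told apart from those of the neighbour. Counts of CEP170, CEP19 and CEP164 are also uncertain to the extent that reads fall on their copies CEP170P1, CEP19P1 and CEP164P1.

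Promoters are shown for CEP55, the midbody gene followed through all tables, for CEP295, which had the largest fall in hypoxia, and for CEP68, the single member called higher in hypoxia. The sequences are from the RefSeq promoter table on GRCh38.p14, 5′ to 3′ on the plus strand that carries each gene, and stop before the first annotated exon base. CEP55 is shown at chr10:93496452-93496611, CEP295 at chr11:93661522-93661638 and CEP68 at chr2:65056256-65056365. Capitals mark matches, on either strand, to TTTGAA (the cell cycle homology region), CCAAT (the CCAAT box) or ACGTG, where the whole match lies in the printed stretch. ACGTG is a form of the core of the hypoxia response element. The GCGTG form of that core was not searched, and the CEP295 stretch holds it near its start, in lower case. A TTTGAA match in CEP295 that begins at -48 from the RefSeq start, and a further one in CEP55 at -3, run past the printed ends and are left in lower case. In CEP68 the matches to ACGTG and CCAAT lie next to each other on the other strand.
CEP55: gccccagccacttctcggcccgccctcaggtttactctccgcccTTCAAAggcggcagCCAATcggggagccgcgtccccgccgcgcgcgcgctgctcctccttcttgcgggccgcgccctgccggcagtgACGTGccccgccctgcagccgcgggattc
CEP295: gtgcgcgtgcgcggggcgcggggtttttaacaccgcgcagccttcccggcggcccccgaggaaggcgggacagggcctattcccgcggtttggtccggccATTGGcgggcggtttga
CEP68: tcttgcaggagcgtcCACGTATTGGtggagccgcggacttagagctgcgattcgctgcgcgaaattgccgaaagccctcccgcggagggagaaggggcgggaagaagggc
In windows of 250 bases before to 50 after the start, which the table holds for 31 members, TTTGAA occurred in 13 members, against 18.2% of all 27305 genes with a window. CCAAT occurred in 18 members against 39.7% of genes, and ACGTG in 11 members against 24.9%. These are matches of letters, not sites.

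In shCtrl cells most members were lower in hypoxia than in normoxia. Of 32 members tested, 26 fell and 1 rose, where 36.8% of the 14903 genes tested were called lower and 43.1% higher. The median log2 difference was -1.98 over members and 0.12 over all genes. At least 2-fold falls were called for 23 members, and for 3243 of the 14903 genes. All 5 members that start a new centriole with PLK4 fell (CEP152, CEP192, CEP63, CEP57 and CEP85), as did CEP55 and 11 of 15 at appendages or the cilium base. In the group counted here as centriole building and length, 7 of 8 fell. It holds CEP44, CEP76, CEP97, CEP120, CEP135 and CEP295, and also CEP70 and CEP72, which are described below by their link to gamma-tubulin. CEP20, CEP72, CEP89, CEP131 and CEP164 did not pass the test.

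**Figure D1:**
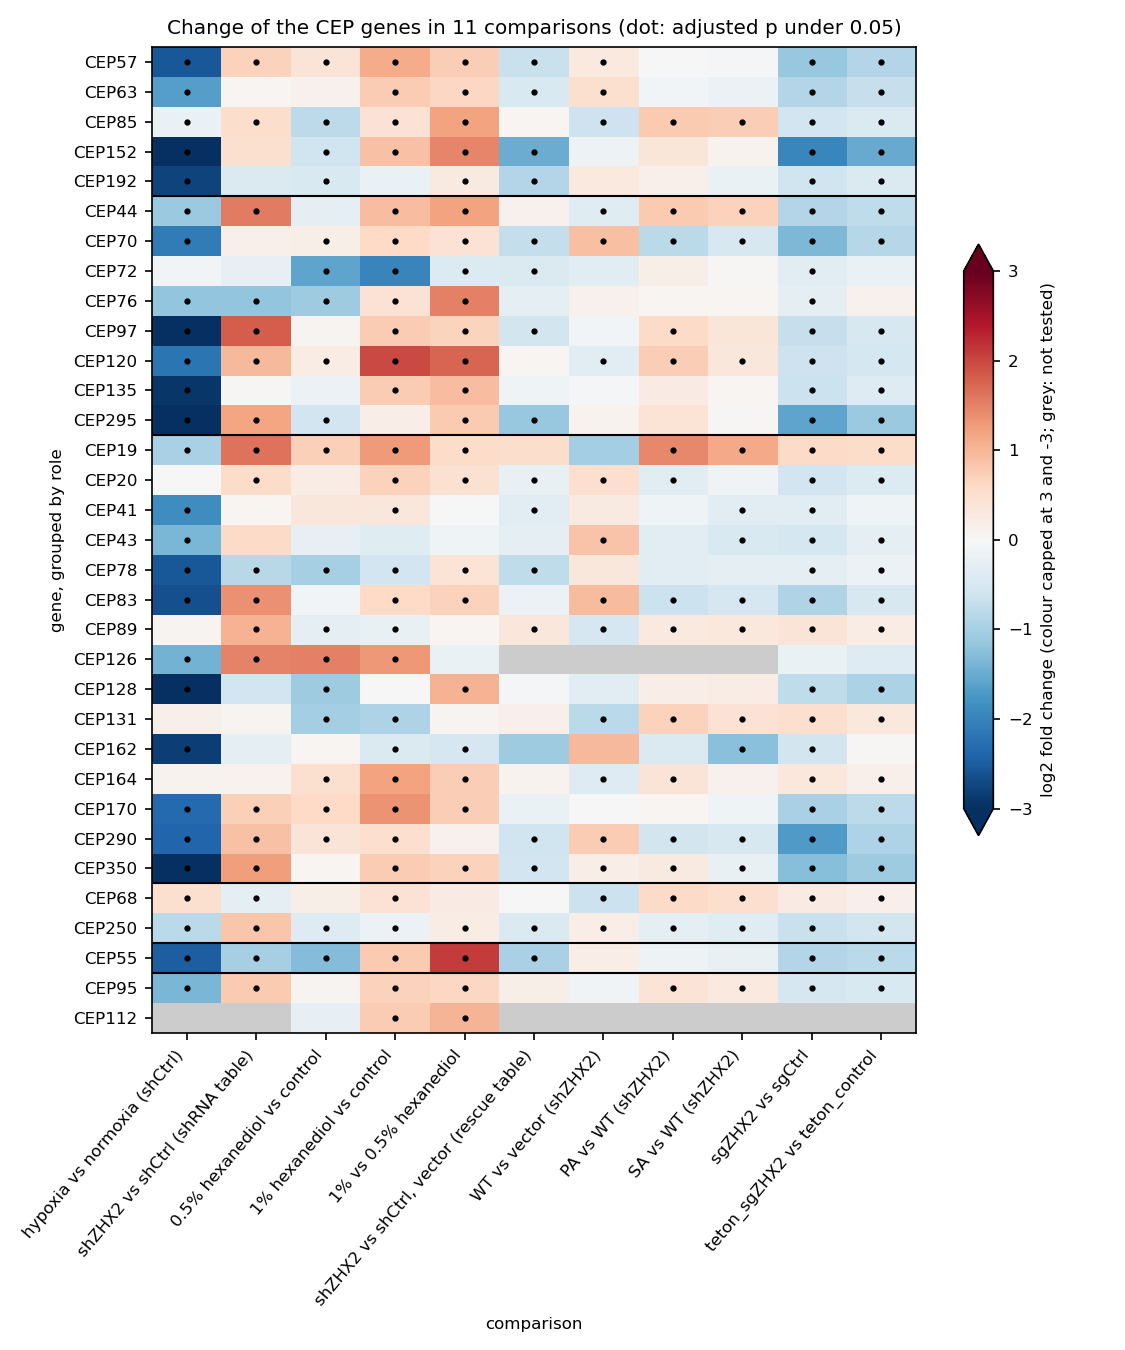
Log2 fold change of each CEP gene (rows, grouped by role) in the 11 comparisons (columns), with red higher, blue lower, grey not tested and a dot where the adjusted p was under 0.05. The hypoxia column is mostly blue, the 1% hexanediol column mostly red, and the sgZHX2 columns mostly blue.

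CEP295, which is needed to convert a new centriole into a centrosome, stood at 11.2, 11.8 and 11.9 CPM in normoxia and at 0.847, 0.696 and 0.304 CPM in hypoxia. The groups lie far apart, an 18.9-fold fall (log2 -4.24 ± 0.21 SE, adjusted p = 9.82e-27). CEP97, which with CP110 caps the centriole end, went from 9.54, 9.39 and 6.59 CPM to 0.521, 1.27 and 0.487 CPM (log2 -3.48 ± 0.24, adjusted p = 8.72e-18). Hypoxic libraries held 13, 11 and 5 reads of CEP295 and 8, 20 and 8 reads of CEP97, so these folds are less exact than their direction. CEP350, a large protein of centriole stability, went from 21.1, 24.0 and 25.7 CPM to 2.34, 3.35 and 2.19 CPM (log2 -3.17 ± 0.13, adjusted p = 3.9e-29). CEP135, a cartwheel component, went from 5.44, 6.59 and 6.20 CPM to 0.716, 0.569 and 1.09 CPM (log2 -2.92 ± 0.24, adjusted p = 9.52e-17). The same limit holds for its fold, with 11, 9 and 18 reads in the hypoxic libraries.

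CEP55 stood at 40.3, 42.7 and 41.5 CPM in normoxia and at 7.88, 7.34 and 7.36 CPM in hypoxia, a 5.52-fold fall with no overlap (adjusted p = 5e-34). The PLK4 scaffold CEP152 went from 4.09, 3.29 and 3.38 CPM to 0.261, 0.127 and 0.791 CPM, and its partner CEP192 from 7.45, 10.3 and 9.28 CPM to 1.24, 1.46 and 1.22 CPM. CEP63, which recruits CEP152, fell less, from 6.84, 8.43 and 7.33 CPM to 2.74, 2.09 and 2.37 CPM (log2 -1.65 ± 0.17, adjusted p = 4.01e-13). CEP290, the gatekeeper of the ciliary transition zone, went from 8.38, 8.12 and 8.72 CPM to 1.95, 1.46 and 1.40 CPM, a 5.24-fold fall. The linker protein CEP250 fell 1.76-fold, from 40.3, 42.8 and 41.6 CPM to 23.4, 24.8 and 22.6 CPM.

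A few members did not fall. CEP164, which forms the distal appendages that dock the cilium, was 30.4, 30.8 and 35.2 CPM in normoxia and 33.7, 34.6 and 35.0 CPM in hypoxia, and the groups overlapped (log2 0.10 ± 0.06, adjusted p = 0.14). CEP68, which holds centrioles together with CEP250, was 6.61, 6.98 and 7.07 CPM in normoxia and 9.57, 9.87 and 9.49 CPM in hypoxia, a 1.40-fold rise with no overlap (adjusted p = 0.000202). That call depends on the scaling: with library sizes in place of TMM factors, which moved the median of all genes by -0.48, the CEP68 change was -0.00, that of CEP164 was -0.39, and 31 members were lower and none higher, where 54.1% of all genes were lower and 22.7% higher. Without the third normoxic or the first hypoxic library 2 members were higher, and CEP164 was among them without the former (log2 0.17).

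Over all genes, the log2 change in hypoxia rose with GC content (rank correlation 0.69). The falls were also measured with a correction for GC content and length. When a smooth trend on GC content and length was removed in each library, 23 members were lower and 2 higher, where 37.9% and 33.0% of all genes were so called, and the median difference was -0.80. Of the 26 falls 21 kept their call, and CEP295 kept a log2 change of -2.82, CEP97 of -1.88 and CEP55 of -1.44. Calls were lost by CEP44, CEP76, CEP43, CEP95 and CEP126, CEP20 became higher (log2 1.23), and CEP72 and CEP131 became lower. Mitochondrial reads made up 4.55 to 4.76% of counts in the normoxic libraries, against 9.12 to 9.57% in the hypoxic ones. The part of RNA quality, GC content or cell cycle state in the falls was not tested. In bulk RNA, fewer cells in the phases that express a gene and less RNA per cell cannot be told apart.

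**Figure D2:**
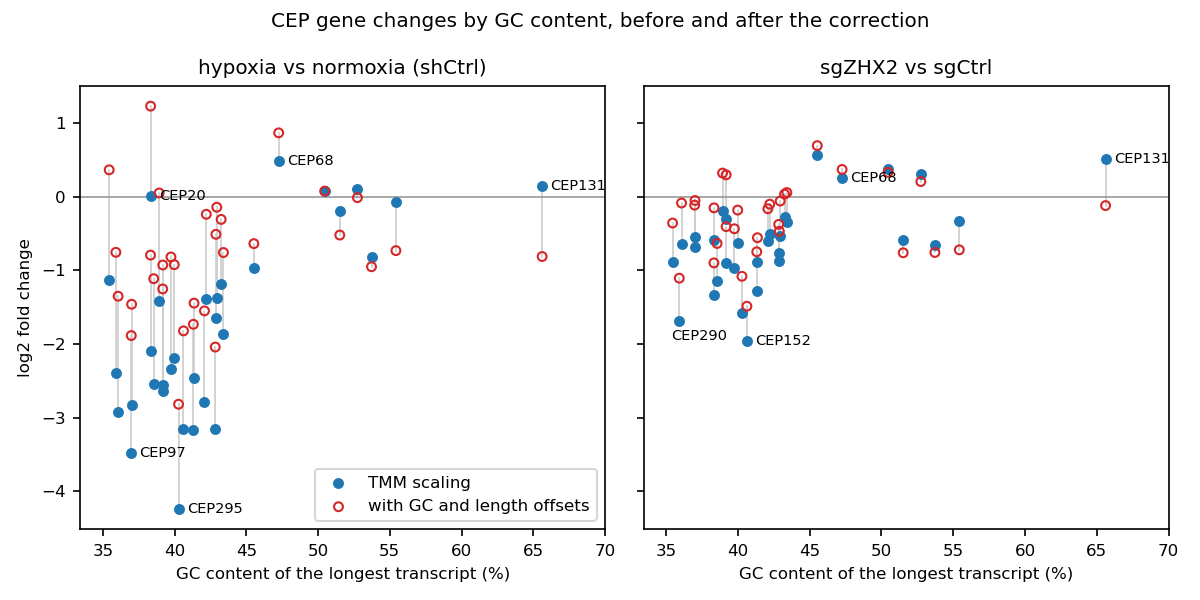
Log2 fold change (vertical axis) against GC content of the longest transcript (horizontal axis, %) for each tested CEP gene in hypoxia against normoxia and in sgZHX2 against sgCtrl. Filled points use TMM scaling, open points add the GC and length correction, and a line joins the values of a gene; the correction moves most GC-poor members toward 0, and moves CEP131 from 0.51 to -0.12 in the sgZHX2 panel.

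Knockdown of ZHX2 in hypoxia, in the same table, raised 16 members and lowered 4 of 32, where 33.6% of all genes were called higher and 33.2% lower. The median log2 difference was 0.55 over members and 0.02 over all genes. This comparison shares its hypoxic shCtrl libraries with the hypoxia comparison, so values of the members are given side by side without a correlation. The higher members came from several roles, with 8 of 15 at appendages or the cilium base and 4 of 8 in the centriole building and length group. The others were 2 of 5 of the PLK4 group (CEP57 and CEP85), CEP250 and CEP95. The lower members were CEP76, CEP55, CEP78 and CEP68. The GC and length correction left 16 higher and 4 lower, against 33.5% and 32.4% of all genes.

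CEP97 rose from 0.521, 1.27 and 0.487 CPM with shCtrl to 3.12, 2.77 and 2.15 CPM with shZHX2, 3.52-fold (adjusted p = 5.05e-07). CEP19, which brings ciliogenesis factors to the older centriole, rose from 0.782, 1.14 and 0.973 CPM to 2.77, 2.94 and 3.31 CPM, 3.10-fold (adjusted p = 2.67e-07). CEP44, which stabilises the new centriole wall, rose from 2.48, 1.39 and 1.52 CPM to 5.37, 5.11 and 5.41 CPM, 2.96-fold. CEP126, a cilium-forming microtubule protein, rose from 1.5, 1.64 and 1.52 CPM to 4.10, 5.11 and 3.81 CPM, 2.79-fold. In these 4 genes each shZHX2 library was above each shCtrl library. CEP89, a distal appendage protein with far more reads, rose from 17.8, 16.6 and 17.6 CPM to 37.0, 35.2 and 35.5 CPM (log2 1.05 ± 0.07, adjusted p = 2.03e-19).

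CEP55 fell further, from 7.88, 7.34 and 7.36 CPM to 3.35, 3.59 and 4.36 CPM, 1.99-fold (adjusted p = 4.2e-10). CEP76, which limits centriole copying, fell from 2.08, 2.02 and 1.64 CPM to 0.809, 0.816 and 0.883 CPM (log2 -1.19 ± 0.28, adjusted p = 0.000227). CEP78, a cilium-linked protein of the centriole wall, fell from 2.41, 1.77 and 1.89 CPM to 1.16, 1.09 and 1.16 CPM (log2 -0.83 ± 0.24, adjusted p = 0.00194). The groups did not overlap for any of the 3. CEP68 went from 9.57, 9.87 and 9.49 CPM to 7.28, 7.89 and 8.67 CPM (log2 -0.28 ± 0.12, adjusted p = 0.0356), a call that was lost with library sizes only (log2 -0.04), with DESeq2 (-0.24), without the low-count filter, and without any shCtrl library or the first or second shZHX2 library (-0.22 to -0.29).

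Of the other followed members, CEP250 rose from 23.4, 24.8 and 22.6 CPM to 43.4, 40.3 and 42.7 CPM, 1.78-fold, and CEP290 from 1.95, 1.46 and 1.40 CPM to 2.31, 3.54 and 2.98 CPM, 1.84-fold. CEP192 was 1.24, 1.46 and 1.22 CPM with shCtrl and 0.982, 1.09 and 0.828 CPM with shZHX2 (log2 -0.43 ± 0.28, adjusted p = 0.182), and CEP63 was 2.74, 2.09 and 2.37 against 2.95, 2.29 and 2.26 CPM (adjusted p = 0.82). CEP164 was 33.7, 34.6 and 35.0 against 38.3, 36.4 and 36.7 CPM (log2 0.11 ± 0.06, adjusted p = 0.124), and it was called with library sizes only (log2 0.34). CEP152 rested on 19 reads in hypoxic shCtrl cells, 13 of them in the third library. Its change was 0.48 ± 0.48 on the log2 scale (adjusted p = 0.389) and 1.5, past the threshold, without that library, so its direction was not detectable at this depth. The mitochondrial share was 9.12 to 9.57% with shCtrl and 11.9 to 12.4% with shZHX2, and its part in these changes was not tested.

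Hexanediol changed the members in a way that depended on concentration. At 0.5%, 8 of 33 members rose and 12 fell, where 19.4% of 16840 genes were called higher and 19.6% lower, and the median was -0.08 over members. At 1%, 23 rose and 6 fell, where 30.2% of genes were called higher and 32.3% lower, with a median of 0.61 over members and -0.04 over all genes. Between the concentrations 24 members were higher at 1% and 2 lower, where 28.3% and 27.7% of genes were called. These 3 comparisons share libraries, so their counts are not independent. The second 0.5% library had a mitochondrial share of 4.88%, against 6.54 and 6.26% in the others, and the deviations of the second libraries of both concentrations correlated at 0.32. Without both second treated libraries 12 members rose and 14 fell at 0.5%, where 24.0% and 24.7% of 17248 genes did. At 1% 23 then rose and 7 fell (32.2% and 34.8% of genes), and 25 were higher and 3 lower at 1% than at 0.5% (30.4% and 30.0%).

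CEP55 fell at 0.5% and rose at 1%. It was 241, 254 and 258 CPM in the controls, 111, 79.1 and 113 CPM at 0.5% and 422, 435 and 450 CPM at 1%. The 3 groups did not overlap: the fall was 2.48-fold (log2 -1.31 ± 0.11, adjusted p = 9.15e-07), the rise 1.74-fold (log2 0.80 ± 0.11, adjusted p = 1.82e-05) and the gap between concentrations 4.31-fold (log2 2.11 ± 0.11, adjusted p = 3.17e-09). CEP152 had the same order, with 66.2, 68.2 and 67.6 CPM in controls, 49.9, 36.7 and 47.8 CPM at 0.5% and 134, 103 and 132 CPM at 1%. Its change was -0.59 ± 0.12 at 0.5% and 0.87 ± 0.12 at 1% on the log2 scale, and 1.46 ± 0.12 between them (adjusted p = 2.77e-07). CEP76 (6.39, 5.77 and 6.33, then 2.45, 3.71 and 2.62, then 8.68, 8.19 and 8.20 CPM) and CEP85 (52.8, 49.8 and 51.0, then 29.9, 30.6 and 29.1, then 67.5, 70.3 and 69.9 CPM) were also called lower at 0.5% and higher at 1%.

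**Figure D3:**
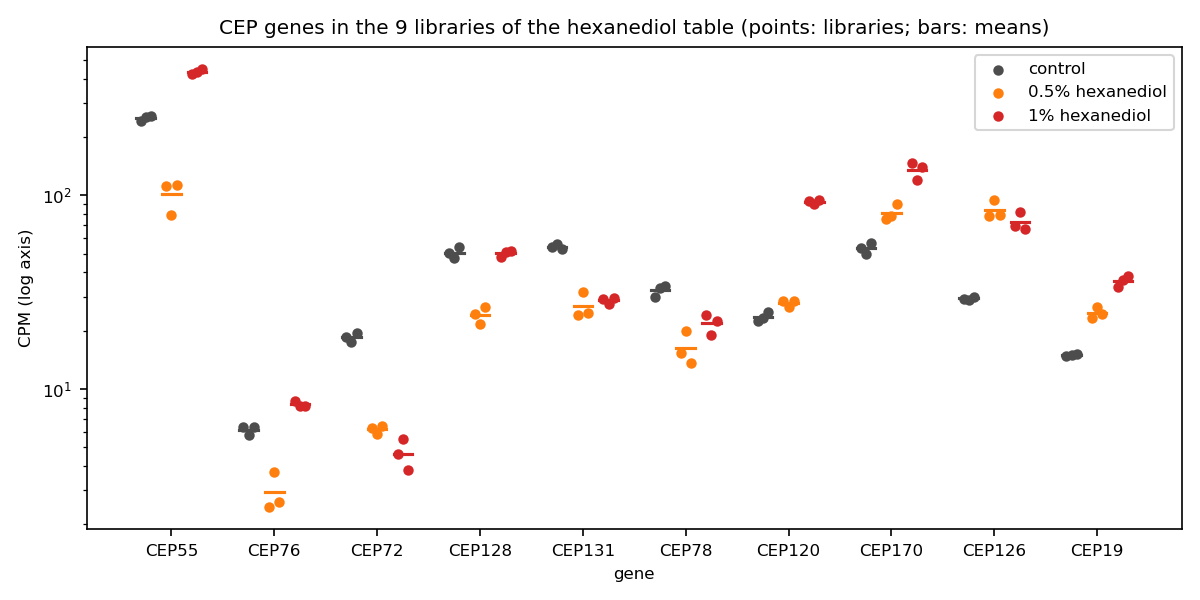
CPM on a log axis (vertical) of 10 CEP genes (horizontal) in the control, 0.5% and 1% hexanediol libraries; points are libraries and bars are means of 3. CEP55 and CEP76 dip at 0.5% and lie above control at 1%, CEP72 and CEP131 are lower at both concentrations, and CEP126, CEP19 and CEP170 are higher at both.

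Other members moved one way at both concentrations. CEP72, a satellite protein that helps gather gamma-tubulin, was 18.6, 17.5 and 19.4 CPM in controls, 6.32, 5.82 and 6.45 CPM at 0.5% and 4.60, 5.49 and 3.79 CPM at 1%. Both falls stand clear of the controls (log2 -1.58 ± 0.13 and -1.99 ± 0.14), while the step from 0.5% to 1% (-0.41 ± 0.15, adjusted p = 0.0254) lost its call with DESeq2, without the low-count filter, with the GC and length correction, and without replicate 1 or 3 of either concentration (-0.29 to -0.42). CEP131, a centriolar satellite protein, was 53.8, 55.8 and 52.9 CPM in controls, 24.0, 31.8 and 24.8 CPM at 0.5% and 29.2, 27.4 and 29.3 CPM at 1%. CEP78 fell too, from 29.7, 33.1 and 34.1 CPM to 15.3, 19.9 and 13.6 CPM at 0.5% and 24.0, 19.0 and 22.4 CPM at 1%. CEP128, a subdistal appendage protein, was 50.4, 47.4 and 53.9 CPM in controls, 24.3, 21.7 and 26.6 CPM at 0.5% (log2 -1.06 ± 0.09) and 47.9, 51.3 and 51.6 CPM at 1%, where it overlapped the controls.

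CEP126 rose from 29.3, 28.8 and 30.0 CPM to 77.8, 94.5 and 78.8 CPM at 0.5% (2.85-fold) and 69.7, 82.3 and 66.7 CPM at 1% (2.48-fold). CEP19 rose from 14.7, 14.9 and 15.2 CPM to 23.2, 26.5 and 24.4 CPM and 33.7, 36.5 and 38.4 CPM. CEP170, a subdistal appendage protein, rose from 53.7, 50 and 56.7 CPM to 75.1, 77.8 and 90.2 CPM and 146, 121 and 139 CPM. All treated libraries of these 3 genes exceeded all controls. CEP120, which lengthens centrioles, had the largest rise at 1%: it was 22.4, 23.1 and 25.1 CPM in controls, 28.3, 26.4 and 28.3 CPM at 0.5% and 93.0, 90.3 and 94.3 CPM at 1%, 3.92-fold above control (log2 1.97 ± 0.08, adjusted p = 5.4e-11). CEP164 rose in steps, from 117, 114 and 126 CPM to 165, 167 and 164 CPM and 260, 302 and 264 CPM.

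CEP162, which links the transition zone to microtubules, was called lower at 1% only (28.2, 29.7 and 29.1 CPM in controls, 28.8, 30.6 and 31.5 at 0.5%, 20.1, 21.0 and 22.9 at 1%), and the step between concentrations was -0.51 ± 0.09 (adjusted p = 0.000149). CEP290 was 152, 147 and 157 CPM in controls, 197, 185 and 213 at 0.5% and 208, 211 and 229 at 1%. Its step between concentrations was 0.12 ± 0.07 without a call, and -0.20 with a call with the GC and length correction. CEP192 was 28.0, 25.6 and 26.7 CPM in controls, 19.3, 19.1 and 19.6 at 0.5% (log2 -0.47 ± 0.09) and 25.9, 21.4 and 22.4 at 1%, where it overlapped the controls (-0.21 ± 0.09). The 1% difference was called with the GC and length correction (-0.45) and without the first 1% library (-0.29). Its step up from 0.5% (0.26 ± 0.09, adjusted p = 0.0289) lost its call with the GC and length correction (0.05) and without replicate 1 or 3 of the 0.5% group or replicate 1 of the 1% group (0.18 to 0.25).

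CEP250 was 480, 456 and 501 CPM in controls, 350, 373 and 377 at 0.5% (log2 -0.39 ± 0.07, adjusted p = 0.000362) and 433, 410 and 432 at 1%. The difference at 1% (-0.17 ± 0.07, adjusted p = 0.0351) had no call with DESeq2, without the filter or with the GC and length correction, none without 5 of the 6 libraries in turn, and changed sign with library sizes only (0.01). Its step between concentrations (0.21 ± 0.07) lost its call without the first 0.5% library (0.16). CEP63 was 106, 109 and 113 CPM in controls, 120, 105 and 136 at 0.5% and 180, 173 and 200 at 1%. It had no call at 0.5% (log2 0.13 ± 0.09), but had one with library sizes only (0.26) and without the second 0.5% library (0.22), and it rose 1.69-fold at 1%. With the GC and length correction 9 members rose and 13 fell at 0.5% (20.6% and 17.2% of all genes), and 20 rose and 8 fell at 1% (29.4% and 30.0%). Between concentrations 21 were then higher at 1% and 3 lower (25.6% and 26.8%). CEP112, tested only here, was 9.31 to 12.5 CPM in controls, 7.52 to 11.4 CPM at 0.5% and 17.7 to 20.3 CPM at 1% (log2 0.77 ± 0.15 against control). CEP43 (FOP, a cilium-forming satellite partner) passed neither test, with log2 changes of -0.24 ± 0.21 and -0.37 ± 0.21.

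In the rescue table, shZHX2 with vector lowered 15 of 31 members and raised 1 against shCtrl with vector, where 35.3% of 14302 genes were called lower and 33.9% higher. The median was -0.30 over members. With the GC and length correction 10 were lower and 5 higher, against 33.4% and 33.6% of all genes, and the median was -0.07. CEP55 was 9.59, 10.4 and 10.1 CPM with shCtrl and 5.65, 5.47 and 4.21 CPM with shZHX2, a 1.98-fold fall with no overlap (adjusted p = 9.51e-13). The largest fall among members was that of CEP152, from 3.99, 2.60 and 3.41 CPM to 1.41, 1.18 and 0.980 CPM (2.81-fold, adjusted p = 9.02e-10). CEP295 fell 2.19-fold, from 2.33, 2.01 and 1.87 CPM to 1.16, 0.814 and 0.858 CPM.

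CEP192 fell from 2.83, 2.65 and 3.22 CPM to 1.11, 1.72 and 1.84 CPM (log2 -0.88 ± 0.19, adjusted p = 3.96e-05), CEP78 from 3.99, 3.78 and 4.02 CPM to 2.37, 2.35 and 2.21 CPM, and CEP70, a gamma-tubulin partner of the spindle, from 2.61, 2.99 and 3.04 CPM to 1.56, 2.22 and 1.47 CPM. These 3 kept their calls with the GC and length correction (log2 -0.60, -0.42 and -0.52). CEP63 fell from 4.05, 4.22 and 5.04 CPM to 3.03, 3.17 and 3.47 CPM (log2 -0.46 ± 0.14), but not with that correction (-0.19). CEP290 went from 3.38, 2.01 and 2.66 CPM to 1.82, 1.81 and 1.67 CPM (-0.59 ± 0.19, adjusted p = 0.00508), and lost its call with the correction (-0.28) and without the first shCtrl library (-0.41). CEP250 fell from 32.8, 35.6 and 37.0 CPM to 23.8, 29.5 and 25 CPM (1.35-fold). CEP89 was the member that rose, from 38.9, 38.9 and 38.7 CPM to 47.6, 48.4 and 51.0 CPM (log2 0.34 ± 0.05, adjusted p = 1.3e-09). CEP164 was 18.4, 15.3 and 16 against 15.4, 20.0 and 17.3 CPM (adjusted p = 0.272); without the first shZHX2 library it was called (0.18) and 2 members were higher, and with the correction it was called too (0.18).

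Both knockdowns were done in hypoxia and share no library. Of 31 members tested in both, 19 were called in the shRNA table and 16 in the rescue table. Called in both were 10, which is 10 of 19 and 10 of 16. The share of all genes called in both was not counted. With so many members called in each table, shared calls are frequent without any link, and no link is read from the 10. CEP55 and CEP78 fell both times and CEP89 rose both times. The other 7, CEP20, CEP57, CEP97, CEP250, CEP290, CEP295 and CEP350, rose in the shRNA table and fell in the rescue table. Most member calls were higher in the first table and lower in the second, so opposite signs are largely given by those balances. With the GC and length correction 4 were higher both times, 2 lower both times and 4 opposite. CEP250 rose in the first table (log2 0.83 ± 0.06) and fell in the second (-0.43 ± 0.06), with -0.34 after correction. The tables were scaled separately and the difference between them was not tested. The shCtrl groups also differed in these members: CEP295 was 0.304 to 0.847 CPM in hypoxic shCtrl cells of the first table and 1.87 to 2.33 CPM in shCtrl with vector.

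**Figure D4:**
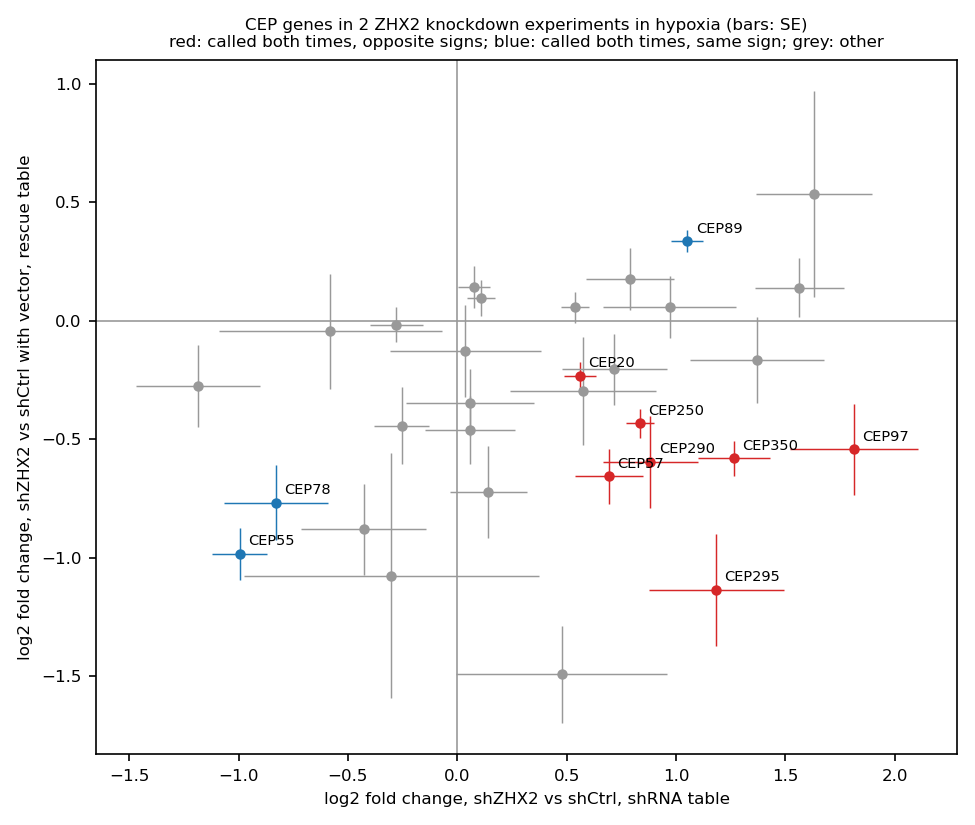
Log2 fold change of each CEP gene with shZHX2 in hypoxia in the shRNA table (horizontal) and in the rescue table (vertical), with bars of 1 SE. Red genes were called both times with opposite signs (7), blue genes both times with the same sign (CEP55, CEP78 and CEP89), grey genes were not called both times.

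Adding WT to shZHX2 cells raised 9 of 31 members and lowered 7 against vector, where 35.1% of genes were called higher and 34.6% lower, with a median of 0.10 over members. The split depended on scaling: with library sizes only 6 were higher and 9 lower, against 29.7% and 40.1% of all genes, and with the GC and length correction 4 and 11, against 34.0% and 31.7% of all genes. Shares of mitochondrial reads were 0.785 to 0.807% with vector and 0.312 to 0.333% with WT. CEP83, a distal appendage protein, rose from 2.52, 2.04 and 1.96 CPM to 4.30, 4.44 and 3.70 CPM (log2 0.94 ± 0.17, adjusted p = 5.96e-07), and CEP70 from 1.56, 2.22 and 1.47 CPM to 3.26, 3.22 and 3.30 CPM (0.90 ± 0.19). The groups did not overlap, and both calls held with the correction (0.61 and 0.52). CEP290 rose from 1.82, 1.81 and 1.67 CPM to 3.12, 3.39 and 2.39 CPM (0.75 ± 0.19) and CEP20 from 27.6, 30.3 and 28.2 CPM to 39.3, 43.4 and 40.6 CPM (0.51 ± 0.05), but neither kept its call with the correction (0.33 and 0.08).

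CEP131 fell with WT from 11.3, 13.1 and 12.1 CPM to 7.0, 7.13 and 6.60 CPM (1.76-fold), CEP68 from 15.5, 17.1 and 14.5 CPM to 11.1, 9.65 and 9.10 CPM (1.57-fold), CEP85 from 18.4, 18.1 and 18.5 CPM to 11.4, 12.0 and 12.4 CPM (1.54-fold) and CEP89 from 47.6, 48.4 and 51.0 CPM to 33.5, 35.6 and 35.0 CPM (1.41-fold). These 4 kept their calls with the correction. CEP55 and CEP152, which fell with shZHX2, were not called with WT: CEP55 was 6.10, 5.79 and 5.46 CPM (log2 0.19 ± 0.12 against vector, adjusted p = 0.155) and CEP152 was 1.28, 0.994 and 0.853 CPM (-0.16 ± 0.26). CEP192 was 1.80, 1.81 and 2.16 CPM (0.28 ± 0.21, adjusted p = 0.231). CEP63 rose to 5.11, 4.56 and 3.70 CPM (0.47 ± 0.14), without a call after the correction (0.28) or without the first WT library (0.35). CEP164 fell to 12.8, 14.8 and 13.2 CPM (-0.38 ± 0.08), and CEP250 was 31.3, 28.5 and 30.3 CPM (0.20 ± 0.06), not called with library sizes only (0.11).

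PA and SA were each compared with WT and share the WT libraries. ZHX2 RNA also differed between these groups (72.3 CPM with WT, 54.0 with PA and 80.5 with SA), and its part in the changes was not tested. With PA 11 members were higher and 5 lower, where 33.2% and 33.7% of genes were called, and with SA 8 were higher and 8 lower, where 32.1% and 32.0% were called. Library sizes only gave 15 and 2 for PA, where 49.0% and 20.4% of all genes were called and the median of all genes moved by 0.25, and 10 and 2 for SA (38.3% and 26.0%). The GC and length correction gave 11 and 4 for PA (30.8% and 35.0% of all genes) and 9 and 2 for SA (29.9% and 33.0%). DESeq2 gave 5 and 3 for SA (29.6% and 28.8%). The mitochondrial share was 1.16 to 1.26% with PA and 1.12 to 1.19% with SA. CEP19, with few reads, was 0.661, 0.702 and 0.718 CPM with PA and 0.376, 0.439 and 0.836 CPM with SA, against 0.331, 0.351 and 0.0569 CPM with WT. CEP85, CEP44 and CEP131 were among the 4 largest rises of well-counted members in both comparisons. CEP85 was 21.1, 20.1 and 20.0 CPM with PA (log2 0.78 ± 0.07) and 20.4, 20.2 and 19.0 CPM with SA (0.74 ± 0.07), each library above the WT range of 11.4 to 12.4 CPM. CEP44 was 7.15, 6.85 and 6.89 CPM with PA and 6.26, 5.75 and 7.36 CPM with SA against 3.55, 4.56 and 4.04 CPM with WT (0.79 ± 0.12 and 0.69 ± 0.13).

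CEP68 was 15, 14.5 and 15.3 CPM with PA (0.58 ± 0.08) and 14.4, 13.8 and 13.9 CPM with SA (0.49 ± 0.08), and CEP131 was 11.9, 11.9 and 9.72 CPM (0.70 ± 0.10) and 9.06, 10.1 and 8.86 CPM (0.43 ± 0.10). CEP120 was 5.83, 7.14 and 6.80 CPM with PA against 4.16, 3.33 and 4.38 CPM with WT (0.73 ± 0.13), and 4.55, 5.55 and 4.98 CPM with SA (0.33 ± 0.13). CEP83 was lower at 3.10, 2.19 and 2.63 CPM with PA (-0.65 ± 0.16) and 3.17, 3.07 and 2.55 CPM with SA (-0.50 ± 0.16). CEP70 was 2.48, 1.57 and 1.48 CPM with PA (-0.81 ± 0.19) and 2.34, 2.92 and 1.80 CPM with SA (-0.48 ± 0.18, adjusted p = 0.0164). The SA call of CEP70 was lost with library sizes only (-0.39), DESeq2 (-0.47), the correction (-0.32) and without the third SA library (-0.32).

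CEP290 was 1.74, 2.15 and 2.20 CPM with PA (-0.55 ± 0.19) and 1.71, 2.19 and 2.47 CPM with SA (-0.49 ± 0.18). The PA call was lost with library sizes only (-0.31) and without the second WT library (-0.46), and the SA call with library sizes only (-0.39), DESeq2 (-0.48), the correction (-0.27) and without the first or second WT or the first SA library (-0.34 to -0.44). CEP250 was 25.6, 25.7 and 23.4 CPM with PA (-0.27 ± 0.06; -0.02 and no call with library sizes only) and 24.9, 22.8 and 23.0 CPM with SA (-0.35 ± 0.06). CEP20 was 31.6, 31.0 and 34.9 CPM with PA (-0.34 ± 0.05), with no call with library sizes only (-0.09) or the correction (-0.05). CEP164 was 17.9, 18.3 and 16.7 CPM with PA (0.38 ± 0.08) and 13.9, 15 and 15.4 CPM with SA (0.12 ± 0.08), called for SA with library sizes only (0.22).

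CEP55 passed neither test. It was 5.00, 5.20 and 5.5 CPM with PA (-0.15 ± 0.12) and 5.43, 4.92 and 4.60 CPM with SA (-0.22 ± 0.12). CEP152 was 1.57, 1.24 and 1.24 CPM with PA (0.36 ± 0.25, called with library sizes only at 0.61) and 1.00, 1.12 and 1.25 CPM with SA. CEP192 was 2.36, 1.69 and 2.35 CPM with PA and 1.88, 1.56 and 1.59 CPM with SA, and CEP63 was 4.80, 4.09 and 3.78 CPM and 4.34, 3.95 and 3.68 CPM, without a call for either gene. Without the first WT, the first SA or the third SA library, 4 members in place of 8 were lower with SA.

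**Figure D5:**
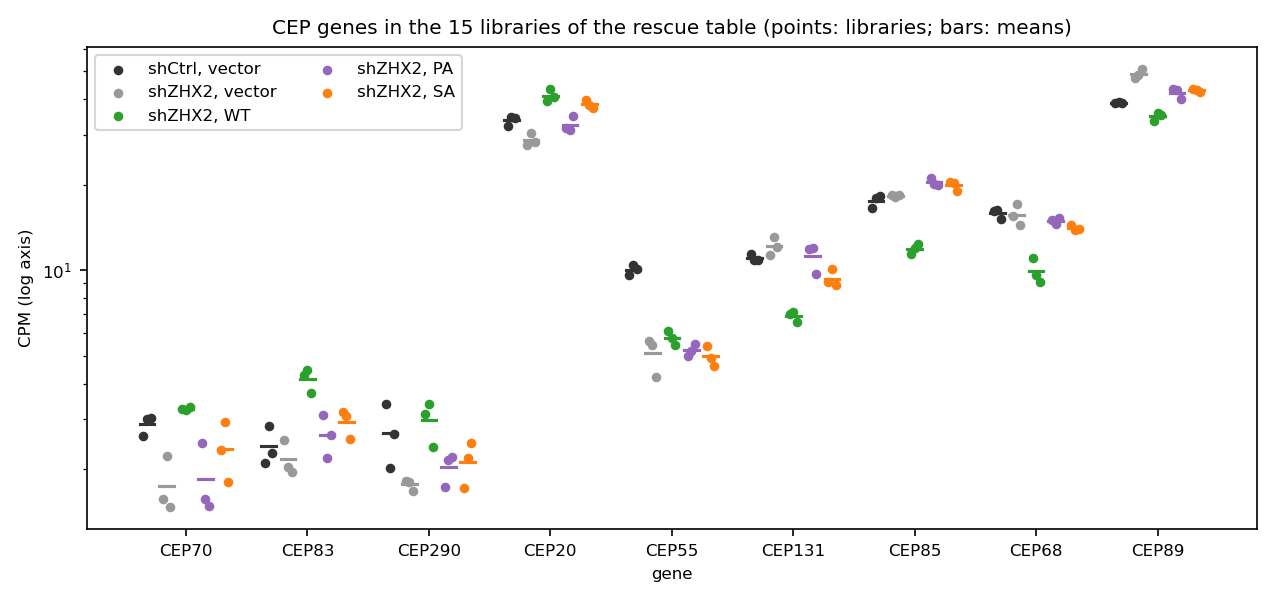
CPM on a log axis (vertical) of 9 CEP genes (horizontal) in the 5 groups of the rescue table; points are libraries and bars are means of 3. CEP55 is lower in all 4 shZHX2 groups than in shCtrl with vector, CEP70 and CEP83 are highest with WT, and CEP85, CEP68, CEP131 and CEP89 are lowest with WT.

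In the sgRNA table most members were lower in the libraries labelled sgZHX2. Of 32 tested, 26 fell and 5 rose against sgCtrl, where 36.1% of 15781 genes were called lower and 37.0% higher, and 22 fell and 5 rose in teton_sgZHX2 against teton_control, where 34.7% and 34.4% were called. The medians were -0.61 and -0.45 over members and 0.01 and -0.00 over all genes. All 5 members of the PLK4 group fell in both comparisons, as did CEP55, CEP95 and CEP250. In the centriole building and length group 8 of 8 and 6 of 8 fell. These comparisons share no library. In both, 27 members were called, 22 lower and 5 higher (CEP19, CEP68, CEP89, CEP131 and CEP164). That is 27 of 31 and 27 of 27 calls, and the share of all genes called in both was not counted. Only CEP126 passed neither test, with log2 changes of -0.19 ± 0.28 and -0.39 ± 0.25.

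CEP152 had the largest fall in both. It was 11.6, 11.4 and 10.9 CPM in sgCtrl and 3.20, 2.56 and 2.98 CPM in sgZHX2, a 3.87-fold fall (log2 -1.95 ± 0.10, adjusted p = 6.12e-22), and 11.7, 11.5 and 12.4 CPM in teton_control and 4.19, 4.19 and 4.14 CPM in teton_sgZHX2, a 2.84-fold fall (-1.5 ± 0.09, adjusted p = 3.24e-19). CEP290 was 17.8, 17.5 and 18.3 CPM against 4.97, 5.63 and 6.00 CPM (-1.69 ± 0.08), and 17.8, 17.7 and 18.2 CPM against 8.51, 9.46 and 10.6 CPM (-0.92 ± 0.07). CEP295 was 8.34, 10.0 and 9.12 CPM against 3.32, 2.74 and 3.11 CPM (-1.58 ± 0.11), and 9.66, 9.87 and 10.8 CPM against 4.19, 4.59 and 5.30 CPM (-1.11 ± 0.10). CEP350, with more reads, was 78.3, 77.3 and 77.1 CPM against 31.6, 32.2 and 32.1 CPM (2.43-fold lower), and 81.1, 81.1 and 81.5 CPM against 38.3, 37.0 and 41.3 CPM (2.09-fold lower). No library of the sgZHX2 groups reached its control range in these 4 genes.

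CEP70 was 10.2, 11.2 and 10.1 CPM in sgCtrl and 4.02, 4.14 and 4.32 CPM in sgZHX2 (-1.34 ± 0.10), and CEP128 was 5.21, 4.73 and 4.77 CPM in teton_control and 1.94, 2.89 and 2.81 CPM in teton_sgZHX2 (-0.95 ± 0.13). CEP55 was 29.4, 28.6 and 33.0 CPM against 16.1, 17.1 and 16 CPM (1.84-fold lower, adjusted p = 1.63e-18), and 31.8, 31.1 and 32.4 CPM against 18.4, 18.5 and 17.9 CPM (1.74-fold lower, adjusted p = 1.51e-17). CEP192 was 11.5, 13.3 and 14.4 CPM against 8.89, 8.93 and 8.10 CPM, and 15.1, 14.3 and 15.3 against 11.7, 10.3 and 11.1 CPM. CEP63 was 10.2, 10.9 and 11 CPM against 6.99, 5.35 and 5.20 CPM, and 9.08, 12.2 and 11.7 against 6.49, 7.12 and 6.73 CPM. The groups do not overlap in any of these, though the falls of CEP192 lost their calls with the GC and length correction (-0.16 and -0.10). CEP250 was 71.3, 71.0 and 74.6 CPM against 45.9, 44.2 and 47.4 CPM (1.58-fold lower), and 73.1, 71.6 and 75.4 against 50.7, 48.4 and 50.1 CPM (1.47-fold lower).

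The rises were smaller. CEP19, with few reads, was 1.36, 0.999 and 1.83 CPM in sgCtrl and 2.07, 2.09 and 2.01 CPM in sgZHX2. In the teton groups it was 1.76, 1.52 and 1.42 against 2.70, 2.37 and 1.78 CPM. CEP89 was 39.2, 35.3 and 36.2 CPM in sgCtrl and 45.1, 48.2 and 50.4 CPM in sgZHX2 (0.38 ± 0.05), and 37.8, 35.8 and 39.8 against 45.9, 42.2 and 43.0 CPM in the teton groups (0.21 ± 0.05). CEP164 was 24.8, 23.9 and 24.7 against 31.9, 29.3 and 29.5 CPM (0.31 ± 0.05), and 25.9, 23.7 and 25.9 against 27.1, 27.5 and 28.7 CPM (0.14 ± 0.05, adjusted p = 0.013). CEP68 was 17.3, 16.5 and 19.4 against 19.9, 21.5 and 21.7 CPM (0.25 ± 0.06), and 18.7, 17.9 and 18 against 19.4, 21.6 and 19.5 CPM (0.15 ± 0.06, adjusted p = 0.028). In the teton groups CEP164 lost its call with DESeq2 and without replicate 2 of teton_control or replicate 3 of teton_sgZHX2 (0.10 and 0.12), and CEP68 with DESeq2 and without replicate 2 or 3 of teton_control or replicate 2 of teton_sgZHX2 (0.10 to 0.15). DESeq2 and the edgeR fit without the second teton_control library each gave 3 higher members, and DESeq2 called 31.3% of all genes higher.

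CEP131 was 16.3, 15.9 and 18.8 CPM in sgCtrl and 23.3, 23.0 and 26.3 CPM in sgZHX2 (0.51 ± 0.06), and 17.1, 17.5 and 17.5 against 21.3, 21.8 and 21.2 CPM in the teton groups (0.31 ± 0.06). It is the most GC-rich member, and both rises turned to -0.12 and -0.13, without a call, with the GC and length correction. Over all genes, the log2 change without the correction rose with GC content (rank correlation 0.56 for sgZHX2 and 0.47 for teton_sgZHX2). With the correction 17 members were lower and 5 higher in sgZHX2 (35.0% and 31.3% of all genes). In teton_sgZHX2 17 were lower and 8 higher (31.8% and 31.9%). The median log2 difference over members was then -0.17 and -0.15. CEP78 turned from lower to higher in both (0.30 and 0.29). CEP152 stayed at -1.49 and -1.16, CEP290 at -1.11 and -0.48 and CEP55 at -0.56 and -0.60. The mitochondrial share was 2.51 to 2.71% in sgCtrl and 1.67 to 1.71% in sgZHX2, and 2.83 to 2.95% and 1.69 to 1.82% in the teton groups. The part of GC content and of RNA quality in the falls was not tested.

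The sgZHX2 and teton_sgZHX2 effects were compared with an interaction test. It called 9 members, each with a lower value under sgZHX2, where 12.0% of genes were called lower and 8.33% higher. The difference was largest for CEP290 at -0.77 ± 0.12 (log2, adjusted p = 2.04e-06). The others were CEP70, CEP295, CEP152, CEP83, CEP76, CEP57, CEP350 and CEP20, from -0.48 to -0.18. DESeq2 gave no adjusted p for 8 of the 32 members, CEP295 among them, and called 5 of the others lower, where it called 9.97% of genes lower and 4.57% higher. The GC and length correction left 2 called lower, CEP290 at -0.63 and CEP250 at -0.22, where 7.17% of genes were called lower and 1.91% higher.

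Other centrosome genes were counted beside the members. Over the 11 comparisons, 19.4 to 43.1% of all genes were called higher and 19.6 to 36.8% lower. Of 15 tested centriole duplication genes, which include PLK4, STIL and SASS6, 12 fell and 2 rose in hypoxia, led by SASS6 (log2 -3.12), STIL (-2.83) and PLK4 (-2.72). After the GC and length correction 10 fell and 4 rose, and these 3 stood at -1.80, -1.71 and -1.43. Of 12 genes of the pericentriolar material and gamma-tubulin ring 10 fell and 2 rose, led by AKAP9 (-4.21), PCM1 (-3.50) and NEDD1 (-3.49). With the correction 9 fell and 1 rose, and these 3 stood at -2.49, -1.92 and -2.15. With shZHX2 in the shRNA table these lists had 5 higher and 2 lower, and 4 and 4, a balance that moved with the setting (4 and 4, and 3 and 6, with the correction, but 7 and 1, and 7 and 3, with library sizes only). With the rescue vector 1 rose and 11 fell of 16, and 1 rose and 9 fell, where 35.3% of all genes fell, and with the correction 7 fell in each list. At 0.5% hexanediol 10 of 16 duplication genes fell and none rose (with library sizes only 8 fell and 1 rose), led by PLK4 (-1.53), CENPJ (-1.45) and STIL (-1.37), and at 1% 3 rose and 4 fell, where 30.2% and 32.3% of all genes did. The balance at 1% turned with the setting, with 1 higher and 6 lower after the correction and 8 higher and 3 lower with library sizes only. In sgZHX2 and in teton_sgZHX2 14 of 16 fell and 1 rose, and with the correction 15 and 14 fell and none rose. Of 11 other appendage and linker genes 8 fell and 1 rose in hypoxia, and 6 rose and 4 fell at 1% hexanediol. Among 5 further CEP-named genes, CEP170B, a paralogue of CEP170, rose in hypoxia (0.53, but -0.28 with the GC and length correction), fell with WT (-1.5) and was higher with PA (1.59) and SA (1.32) than with WT.

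Mitosis genes moved in these comparisons as well, in which 19.4 to 43.1% of all genes were called higher and 19.6 to 36.8% lower. Of 12 such genes (MKI67, TOP2A, CDK1, CCNB1, CCNA2, PLK1, AURKA, BUB1, KIF11, PRC1, ANLN and ECT2) 10 fell and 1 rose in hypoxia, with a median log2 change of -2.14 (9, 2 and -1.41 with the GC and length correction), and 11 fell with shZHX2 in the shRNA table. All 12 fell at 0.5% hexanediol (median -1.26), and all 12 were higher at 1% than at 0.5%, also with the GC and length correction and with library sizes only. At 1% against control 4 rose and 2 fell, but 2 rose and 4 fell with the correction, and 6 rose and 1 fell with library sizes only. With the rescue vector 11 of 11 tested fell with shZHX2 (median -1.57), 10 rose with WT (0.96), and 10 were lower with PA and 10 with SA than with WT. All 12 fell in sgZHX2 (-1.23) and in teton_sgZHX2 (-0.96). CEP55 was called in the same direction as most of this list in 7 of the 11 comparisons. The others were 1% hexanediol against control, where CEP55 rose and the balance of the list turned with the setting, and WT, PA and SA, where CEP55 was not called. The part of cell cycle state in the changes of the members was not tested.

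Further fold changes in selected comparisons are given here without errors, some of them for members with library values above. CEP57, which joins CEP63 in the pericentriolar material, fell 5.83-fold in hypoxia, rose 2.16-fold at 1% hexanediol and fell 2.20-fold in sgZHX2. CEP41, a cilium protein for tubulin glutamylation, fell 3.65-fold in hypoxia and 1.27-fold in the rescue knockdown and in sgZHX2. CEP43 fell 2.59-fold in hypoxia and rose 1.82-fold with WT. CEP95, a less studied member, fell 2.61-fold in hypoxia and rose 1.73-fold with shZHX2 in the shRNA table. CEP83 fell 6.19-fold in hypoxia and CEP162 fell 7.09-fold, from 1.68 ± 0.164 to 0.228 ± 0.152 CPM. CEP128 fell 8.87-fold in hypoxia, to 0.419 ± 0.155 CPM. Hypoxic shCtrl libraries held 11 reads of CEP162 and 20 of CEP128 in all, so these folds are inexact. CEP170 fell 5.03-fold and CEP120 fell 4.56-fold in hypoxia, and both fell in sgZHX2 (1.96-fold and 1.55-fold).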

How the data were processed

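The authors deposited 4 tables of raw read counts per gene, made from 150 bp paired-end polyA RNA libraries. Per the submitters' processing notes, FastQC, HISAT2, featureCounts and DESeq2 were used with hg38; no source used here gives versions, annotation release or the counting's strand setting. Columns named sgNC were matched to sgCtrl. Each table was fitted over all its groups with edgeR 4.0.16 (R 4.3.3, limma 3.58.1): TMM factors, filterByExpr, robust quasi-likelihood test and Benjamini-Hochberg adjustment over all genes tested. Adjusted p-values in the text are from this test, and a gene was called at an adjusted p under 0.05. Errors of log2 changes are standard errors. The scripts were tested on simulated data. Alternatives were library sizes only, DESeq2 1.42.0, no filter, a GC and length correction by splines with 5 degrees of freedom per library, a replicate block, each library left out and, chosen after seeing the data, both second treated hexanediol libraries left out. Replicate numbers passed a pairing rule, each same-number correlation above 0.1, only between 1% and 0.5% hexanediol. The correlations were 0.12, 0.32 and 0.12 for the same number and at most 0.17 for different numbers. Only 2 of 6 libraries correlated best with their own number, so pairing is not shown. Exon lengths, GC content and overlaps came from GENCODE. Biological coefficients of variation were 2.81 to 10.2% and genes tested 14302 to 16840. No replicate pair agreed within sampling noise (chi-square per degree of freedom 1.71 to 27.9).

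The members and gene lists were chosen with earlier results of these data known. All members are named. Values per library are given for up to 4 called members each way per comparison with the largest change and an average log2 CPM of at least 1, and for the 7 followed members CEP55, CEP152, CEP192, CEP63, CEP164, CEP290 and CEP250. Further members with library values were chosen after their values were seen.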

Additional observations from a re-analysis of the deposited data

Results flagged for a closer look

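For 7 members the shZHX2 effect was called in opposite directions in the shRNA and rescue tables, and the difference was not tested. Most member calls were higher in the first table and lower in the second. The share of all genes with opposite calls was not counted. The log2 changes were 0.56 and -0.23 for CEP20, 0.69 and -0.66 for CEP57, 1.81 and -0.54 for CEP97, and 0.83 and -0.43 for CEP250. They were 0.88 and -0.59 for CEP290, 1.18 and -1.13 for CEP295, and 1.26 and -0.58 for CEP350. With the GC and length correction 4 members had opposite calls.

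For 9 members the interaction test found a lower value for the sgZHX2 effect than for the teton_sgZHX2 effect. The log2 difference was -0.77 for CEP290, -0.48 for CEP70, -0.47 for CEP295, -0.45 for CEP152, -0.42 for CEP83, -0.40 for CEP76, -0.26 for CEP57, -0.21 for CEP350 and -0.18 for CEP20. The edgeR adjusted p was 2.04e-06 for CEP290 and 0.00479 to 0.0276 for the others, and with the GC and length correction CEP290 alone of these 9 kept its call.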

How the results depend on the processing

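Of 141 named log2 changes, those that kept their direction and side of the threshold numbered 134 with DESeq2, 138 without the low-count filter, 126 with library sizes only, 122 with the GC and length correction and 141 with the replicate block. With library sizes only the sign changed for CEP68 (-0.000537) and CEP164 (-0.386) in hypoxia and for CEP250 at 1% hexanediol (0.0062). With the GC and length correction it changed for CEP290 between 1% and 0.5% hexanediol (-0.197, and -0.196 with the replicate block as well), and for CEP131 with sgZHX2 (-0.12) and teton_sgZHX2 (-0.13). Listed next are only the member counts that moved more than 1.5-fold from the main fit, or to 0. Shares of all genes for them are given above unless printed here. Library sizes only gave 0 members higher in hypoxia, 2 lower with PA and 2 lower with SA. DESeq2 gave 1 lower at 1% than at 0.5% hexanediol, where 4193 of 16840 genes were lower. It also gave 5 higher and 3 lower with SA, 3 higher with teton_sgZHX2 and 5 different sgZHX2 effects. Without the filter 1 was lower at 1% than at 0.5% hexanediol, where 4577 of 37130 genes were lower. With SA 5 were then lower, where 4264 of 30027 genes were. The GC and length correction gave 2 higher in hypoxia, 5 higher in the rescue knockdown, 4 higher and 11 lower with WT, 2 lower with SA, 17 lower with sgZHX2, 8 higher with teton_sgZHX2 and 2 different sgZHX2 effects. The causes were not tested.

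Leaving out each library gave 1 to 2 higher in hypoxia, 1 to 3 lower at 1% than at 0.5% hexanediol, 1 to 2 higher in the rescue knockdown, 4 to 7 lower with SA, 3 to 5 higher with teton_sgZHX2 and 6 to 10 different sgZHX2 effects. Shares of all genes are not given for fits with a single library left out, here or above. Those ranges show only how far the member counts moved. The replicate block gave 24 higher and 3 lower at 1% than at 0.5% hexanediol, where 4967 and 4842 of 16840 genes were so called. In that comparison the replicate numbers passed the pairing rule. The block changed no other call among the named values. Depth limits members with a mean under 1 CPM in hypoxic shCtrl cells, among them CEP152, CEP162, CEP128, CEP295, CEP97 and CEP135.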
